A study of Mus musculus with 32 samples.

Results

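Genes that define brown fat were followed across a mouse microarray study: Ucp1, Cidea, Dio2, Elovl3, Cox8b, Cox7a1, Otop1, Ppargc1a, Ppara and Prdm16. They are 10 of 20659 genes that could be named, with 14 of 27234 named probes. The brightest probe of each gene gives the levels and tests, and the 4 other probes, of Otop1, Ppargc1a and Ppara, are given beside them for some comparisons. They were chosen by symbol as the core genes of brown fat identity and heat production, with earlier results of these data known. The study asked how Pparg, the nuclear receptor that drives fat cell formation, acts on brown adipocytes, and whether glycerol kinase is part of that action. Total RNA of 32 samples was measured on 32 one-colour Agilent arrays, in 8 groups of 4, all of strain C57Bl/6 mice.

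In culture the groups were Pparg knockdown arrays with their controls and Gyk knockdown arrays with their controls, all labelled as kept at room temperature. Gyk stands for glycerol kinase and appears in the RefSeq table as Gk. From mice there were arrays labelled Pparg knockout and Pparg control at room temperature, and arrays labelled Pparg knockout and Pparg control after cold exposure. The method of knockdown and knockout, the cells a knockout covers, the age of the mice and the length of the cold exposure are not given in the sources used here. Whether the samples of a group are independent cultures or mice is not given either, and the p-values rest on a spread among samples that may be technical. Each experiment took 1 scan day and 2 slides, with arrays of both groups on either slide, so cold and room temperature cannot be told apart from slide and scan day.

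Brown adipocytes burn fatty acids to make heat. UCP1 lets protons back across the inner mitochondrial membrane without making ATP, and noradrenaline released in the cold switches this on through cyclic AMP. In mice, cold is known to raise Ucp1, Dio2, Elovl3 and Ppargc1a in brown fat, and PPARG together with PRDM16 and the coactivator PGC-1alpha is known to sustain the brown programme.

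Levels are given as the log2 of the spot intensity minus the log2 of that array's 75th percentile, so that a value of 0 is as bright as the 75th percentile and each step of 1 is a doubling. They can be compared between arrays for a probe, not between probes. A spot was called well above background by the scanner software. Differences are log2 differences from limma with their standard error (SE), and a gene was called where the Benjamini-Hochberg adjusted p over all genes tested was under 0.05. The number of arrays limits the precision of every value.

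The 75th percentile of intensity lay between 141 and 806 on the arrays, and 46.7% to 60.9% of the spots were well above background. At room temperature this percentile was 499 to 604 on arrays labelled knockout, against 293 to 406 on controls. More was therefore subtracted from those arrays labelled knockout. Gyk knockdown replicates 3 and 4 had the dimmest arrays. In the labels the cell type of each sample is preadipocytes, but all 9 mature adipocyte markers were well above background in each of the 8 groups. Their summed level, in units of the 75th percentile, was at least 531 on every array. All 8 preadipocyte and fibroblast markers were well above background in each group too.

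The targeted genes were examined first. Pparg measured 4.10, 4.10, 4.38 and 4.36 on the Pparg knockdown arrays, against 5.99, 5.97, 6.29 and 6.34 on their controls (difference -1.91, SE 0.12, adjusted p = 8.85e-06). Gk measured -2.61, -3.00, -1.40 and -1.19 on the Gyk knockdown arrays, against 0.40, 0.38, 0.22 and 0.39 on their controls (difference -2.40, SE 0.39, adjusted p = 0.0118). Both knockdowns therefore lowered their target on all 4 arrays, and Gk also fell in Pparg knockdown, by 1.44 on the log2 scale. In mice the Pparg probe went against the label. It lay between 7.37 and 7.53 on room-temperature arrays labelled knockout, against 5.26 to 5.53 on controls (difference 2.08, adjusted p = 9.78e-07), and between 7.90 and 8.06 on cold arrays labelled knockout, against 5.28 to 6.41 on controls (difference 2.13, adjusted p = 1.05e-06). The sources used here do not say which part of Pparg was removed, so this probe cannot check the label, and every mouse direction below rests on the label alone.

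**Figure D1:**
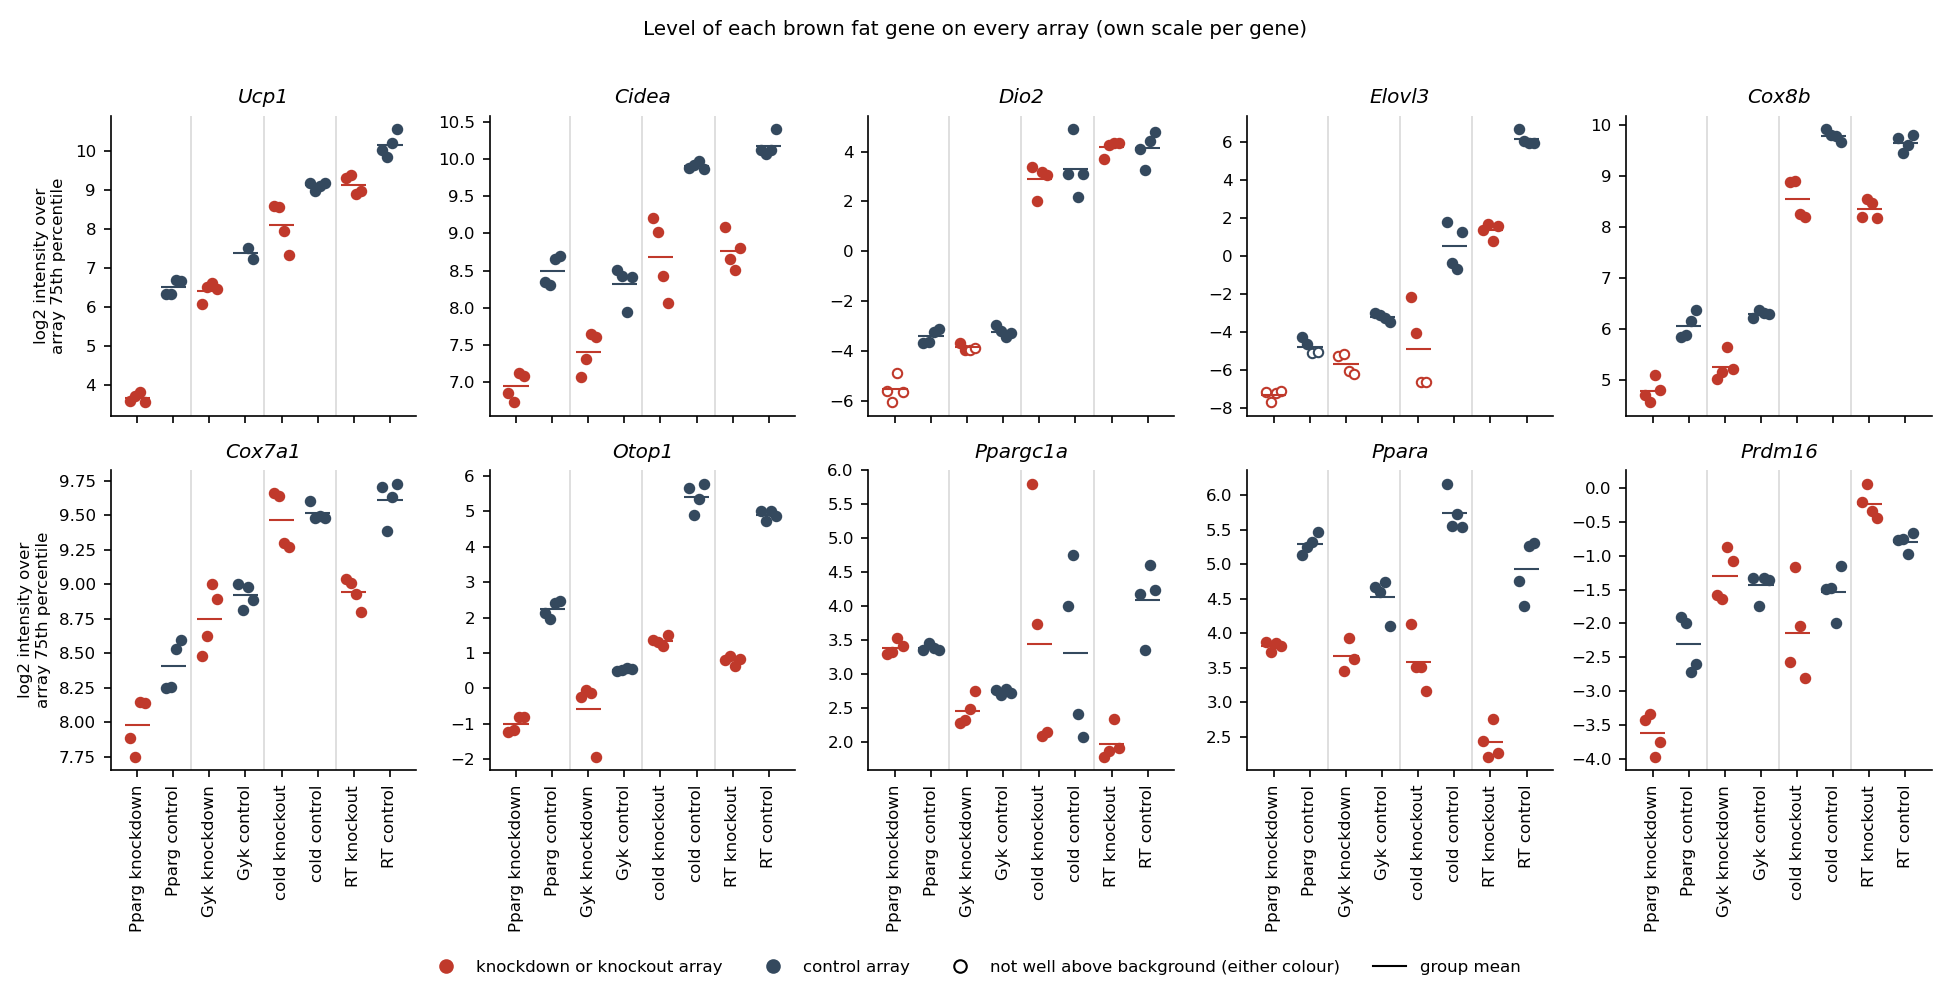
Level of each of the 10 genes on every array. Each panel is a gene on its own scale; the y axis is log2 intensity over the array's 75th percentile; red points are knockdown or labelled knockout arrays and dark points are controls; open points were not well above background; lines are group means; RT is room temperature. Outlier spots left out (2 Gyk controls of Ucp1 and 1 Gyk knockdown array of Ppara) are not drawn. Ucp1, Cidea, Elovl3, Cox8b, Otop1 and Ppara show the red points below the dark ones in all 4 pairs of groups, and Ppargc1a spreads between 2.07 and 5.80 on the cold arrays.

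Ucp1 was highest at room temperature in control mice (10.17 ± 0.31, SD, n = 4). Next came room-temperature arrays labelled knockout (9.15 ± 0.23) and cold control mice (9.13 ± 0.09), whose ranges overlapped. Cold arrays labelled knockout (8.12 ± 0.60) overlapped with Gyk controls (7.39 ± 0.20, n = 2). Pparg controls (6.51 ± 0.19) overlapped with Gyk knockdown (6.43 ± 0.23), and Pparg knockdown stood apart at the bottom (3.67 ± 0.12). Cidea, Elovl3 and Cox7a1 were likewise highest in room-temperature controls, though Cox7a1 there overlapped with both cold groups. Cox8b, Otop1 and Ppara had their highest mean in cold controls, and Dio2 and Prdm16 in room-temperature arrays labelled knockout. Pparg knockdown arrays gave the lowest group mean of 8 of the 10 genes, among them Dio2 and Elovl3, for which none of those arrays was well above background. For Elovl3 the same held of Gyk knockdown, so these groups have no order. Ppargc1a and Ppara were the exceptions, lowest in room-temperature arrays labelled knockout.

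Stretches of promoter are shown for 4 genes, Ucp1 and Otop1 because they were lower in both Pparg knockdown and the arrays labelled knockout, and Dio2 and Ppargc1a because each was called in some of these comparisons and not in others. Each is the 250 bases before the transcription start, from RefSeq on GRCm38.p6, written 5′ to 3′ on the gene's own strand. Capitals mark matches to AGGTCA, the core motif of nuclear receptors, to TGACGTCA, the cyclic AMP response element, to TGACG, its shorter core, or to TATAAA, the TATA box, on either strand.
Ucp1, chr8:83290098-83290347, plus strand: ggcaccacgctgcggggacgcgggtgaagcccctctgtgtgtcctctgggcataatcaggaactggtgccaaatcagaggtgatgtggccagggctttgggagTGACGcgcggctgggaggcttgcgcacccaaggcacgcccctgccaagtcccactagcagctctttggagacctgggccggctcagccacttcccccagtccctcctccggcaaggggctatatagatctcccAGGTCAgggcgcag
Otop1, chr5:38277154-38277403, plus strand: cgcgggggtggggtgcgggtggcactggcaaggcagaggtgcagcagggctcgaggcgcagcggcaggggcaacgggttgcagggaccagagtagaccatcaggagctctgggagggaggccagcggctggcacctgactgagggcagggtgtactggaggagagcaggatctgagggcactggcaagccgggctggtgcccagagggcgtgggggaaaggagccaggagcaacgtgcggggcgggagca
Dio2, chr12:90739039-90739288, minus strand: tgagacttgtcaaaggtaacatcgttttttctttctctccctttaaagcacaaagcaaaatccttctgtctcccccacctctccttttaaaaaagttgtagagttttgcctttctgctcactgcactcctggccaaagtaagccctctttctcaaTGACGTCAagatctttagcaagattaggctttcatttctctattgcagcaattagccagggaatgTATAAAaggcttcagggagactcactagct
Ppargc1a, chr5:51567726-51567975, minus strand: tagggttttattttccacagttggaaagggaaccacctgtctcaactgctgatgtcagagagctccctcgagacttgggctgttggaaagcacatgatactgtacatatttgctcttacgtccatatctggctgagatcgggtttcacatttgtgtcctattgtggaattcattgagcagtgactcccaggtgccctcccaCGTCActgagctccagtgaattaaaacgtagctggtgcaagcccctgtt

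In the Ucp1 window AGGTCA lay 14 to 9 bases before the start and TGACG 147 to 143 bases before it. The Dio2 window held the whole TGACGTCA 95 to 88 bases before the start, where it overlaps a TGACG on each strand, and TATAAA 30 to 25 bases before it. The Ppargc1a window held TGACG on the other strand, read as CGTCA, 49 to 45 bases before the start, and the Otop1 window held none of them. Of 8 members with a window, Ppara also held TGACG, and Cox8b, Cox7a1 and Prdm16 held no match. Among 32851 RefSeq windows of the same length, 14.0% held AGGTCA, 17.8% TGACG, 12.4% TATAAA and 1.55% TGACGTCA. The longer motifs searched were a direct repeat of AGGTCA with 1 base between its copies (0.0335% of windows), the form PPARs bind, and TCAAGGTCA, the site of estrogen-related receptors (0.387%), and no member's window held either. These matches describe letters only.

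In Pparg knockdown cells most of the brown fat genes fell together. Of 9 members tested, 8 were lower and 0 higher, where 34.0% of 12851 genes tested were called in either direction, 16.0% lower and 18.1% higher. That fit left out the slide. With the slide as a block, 7597 of the 12851 genes were called, and the same 8 members. Ranges of the groups were apart for those 8, and for 35.9% of all genes. Dio2 is in both counts through its control arrays alone, since no knockdown array was well above background for it. The median difference of the members was -1.48, against 0.03 for all genes. Among members measured in both groups Otop1 and Ucp1 fell furthest and Cox7a1 least, and Ppargc1a did not pass the test. Fewer cells of a type and less RNA per cell cannot be told apart in these bulk samples.

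Among the heat and thyroid hormone genes, Ucp1 measured 3.59, 3.72, 3.82 and 3.57 on the Pparg knockdown arrays, against 6.34, 6.35, 6.69 and 6.67 on their controls. The groups were well apart, and the fall was 7.15-fold (difference -2.84, SE 0.11, adjusted p = 8.07e-07). Dio2, the deiodinase that turns thyroxine into active thyroid hormone inside the cell, measured -5.60, -6.06, -4.89 and -5.65 on knockdown arrays, against -3.68, -3.65, -3.25 and -3.10 on controls. No knockdown array was well above background for Dio2 while all 4 controls were. Dio2 was therefore at least 3.52-fold lower (adjusted p = 0.00024, fitted on dim values). For such a bound the mean of the brighter group is set against a floor averaged over the dim arrays. On each dim array the floor is the dimmest signal that still counted as well above background, or the gene's own value where that is higher. Dio2 lost its call when the background was corrected with normexp (difference -0.82, adjusted p = 0.0807).

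Among the lipid genes, Cidea, a lipid droplet protein, measured 6.85, 6.73, 7.13 and 7.08 on knockdown arrays, against 8.35, 8.31, 8.65 and 8.70 on controls (difference -1.55, SE 0.13, adjusted p = 4.25e-05). The knockdown arrays all lay below the controls. Elovl3, which lengthens very long chain fatty acids, was near the floor of these cultures, well above background on none of the 4 knockdown arrays (-7.17, -7.68, -7.17 and -7.11) and on 2 of 4 controls (-4.25, -4.64, -5.08 and -5.06). It was too dim to be tested, and no fold is given.

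The cytochrome oxidase subunits differed in size of change. Cox8b measured 4.69, 4.56, 5.09 and 4.80 on knockdown arrays, against 5.83, 5.87, 6.15 and 6.36 on controls (difference -1.27, adjusted p = 0.000343). Cox7a1 measured 7.88, 7.75, 8.15 and 8.14, against 8.25, 8.25, 8.53 and 8.59 on controls, a 1.34-fold fall (difference -0.43, SE 0.13, adjusted p = 0.0321). The Cox7a1 groups lay close to each other without overlapping, and the difference was -0.43 and -0.42 within the slides. Its adjusted p was 0.000751 with the replicate block and 9.5e-05 with the slide block. In the fit without a block it lay between 0.0789 and 0.0809 without control replicate 3 (-0.38), control replicate 4 (-0.36), knockdown replicate 1 (-0.39) or knockdown replicate 2 (-0.35).

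Otop1, a proton channel, fell 9.47-fold, the most among the members that were well above background in both groups. It measured -1.24, -1.17, -0.81 and -0.80 on knockdown arrays, against 2.12, 1.95, 2.42 and 2.46 on controls (difference -3.24, SE 0.15, adjusted p = 1.88e-06). The other Otop1 probe differed by -2.64, with 2 of 4 knockdown arrays well above background.

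Of the transcriptional regulators, Ppara and Prdm16 fell and Ppargc1a did not pass the test. Ppara, the nuclear receptor that drives fatty acid oxidation, measured 3.87, 3.73, 3.86 and 3.82 on knockdown arrays, against 5.14, 5.25, 5.32 and 5.48 on controls (difference -1.48, adjusted p = 7.05e-06). Its other probes differed by -1.59 and -1.30. Prdm16, the factor that keeps brown fat precursors from a muscle fate, measured -3.42, -3.35, -3.97 and -3.75, against -1.91, -2.001, -2.71 and -2.60 on controls (difference -1.31, adjusted p = 0.00187). Ppargc1a, the coactivator of mitochondrial genes, measured 3.29, 3.32, 3.53 and 3.42, against 3.36, 3.46, 3.38 and 3.36 on controls. These values overlapped throughout (difference 0.00, SE 0.08, adjusted p = 0.989), and its other probe differed by 0.06.

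Markers of fat cell maturity moved with these genes. Of 9 mature adipocyte markers 7 were lower and 0 higher, and their summed level was 531 to 646 on knockdown arrays, against 1118 to 1372 on controls. Of 8 preadipocyte and fibroblast markers 5 were higher and 0 lower, with sums of 34.8 to 36.6 on knockdown arrays, against 21.0 to 23.1 on controls. All of these markers were well above background in both groups, and their part in the fall of the brown fat genes was not tested.

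**Figure D2:**
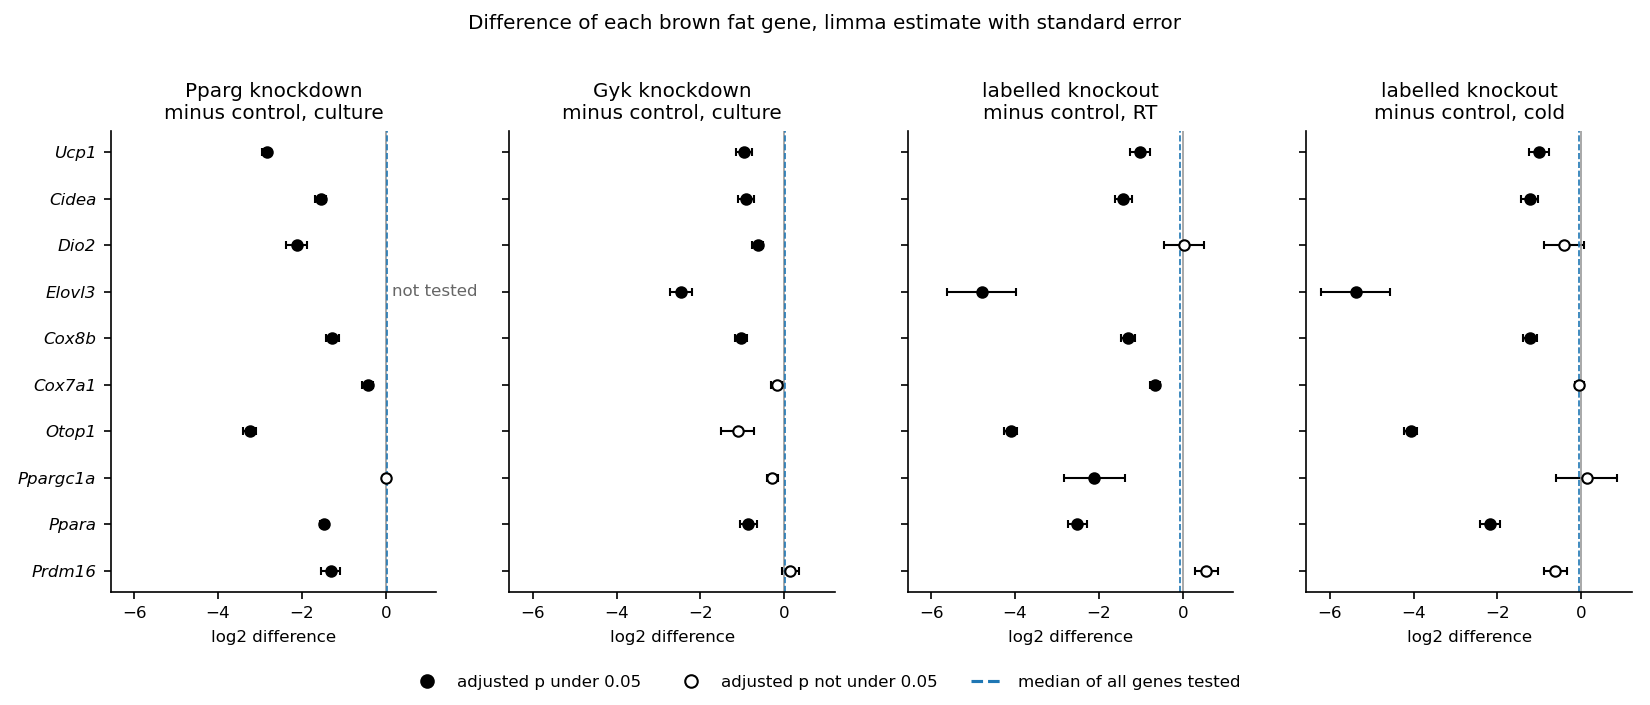
Log2 difference of each gene (points, with SE as bars) in Pparg knockdown minus control, Gyk knockdown minus control, and labelled knockout minus control at room temperature and in the cold, 4 arrays a group. Filled points had an adjusted p under 0.05, and the dashed line is the median of all genes tested. Otop1 lies at -3.24 in Pparg knockdown and at -4.10 and -4.07 in the mouse panels, and Ppargc1a was called in 1 of the 4 panels.

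Gyk knockdown lowered brown fat genes as well. Of 10 members tested, 6 were lower and 0 higher (Ucp1, Cidea, Dio2, Elovl3, Cox8b and Ppara), where 8.76% of 12233 genes were called in either direction, 4.10% lower and 4.65% higher. The groups did not overlap for 7 members, all lower in knockdown, against 22.4% of all genes (10.9% lower and 11.5% higher). Both counts hold Ucp1, which rests on 2 controls and whose groups overlap when the outlier spots are kept. Both also hold Elovl3, for which no knockdown array was well above background. The median of the members was -0.88, against 0.02 for all genes. Ucp1 is the least secure of these calls and is described last. The calls were fragile as a group: leaving out any array gave 1 to 6 members called, and normexp background correction left 2.

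Elovl3 and Cox8b had the smallest adjusted p, that of Elovl3 fitted on dim values. Elovl3 measured -5.27, -5.15, -6.03 and -6.21 on Gyk knockdown arrays, none of them well above background, against -2.97, -3.10, -3.25 and -3.47 on controls, all above it. Elovl3 was at least 2.50-fold lower. It entered the test through its control arrays alone, so its adjusted p of 0.00227 does not measure a change between detected levels. With normexp its difference was -0.40 (adjusted p = 0.411). Cox8b measured 5.01, 5.15, 5.63 and 5.21, against 6.20, 6.36, 6.30 and 6.29 on controls (difference -1.04, SE 0.15, adjusted p = 0.00668). The 2 sets of Cox8b values did not meet.

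Cidea measured 7.07, 7.31, 7.65 and 7.61 on Gyk knockdown arrays, against 8.51, 8.43, 7.95 and 8.42 on controls (difference -0.91, SE 0.18, adjusted p = 0.0231). The difference was -1.28 within the first slide and -0.55 within the second, and the adjusted p was 0.0681, 0.0741 and 0.0721 without control replicates 1, 2 and 4. Dio2 measured -3.69, -3.95, -3.95 and -3.87, against -2.96, -3.22, -3.45 and -3.28 on controls (difference -0.63, adjusted p = 0.0278). Only 2 of the 4 knockdown arrays were well above background for Dio2, and its adjusted p was 0.0511 to 0.0825 without any array other than knockdown replicate 1. With normexp the Dio2 difference was -0.13 (adjusted p = 0.810). Ppara measured 3.45, 3.93 and 3.63 on the 3 usable knockdown arrays, against 4.67, 4.60, 4.74 and 4.10 on controls (difference -0.85, adjusted p = 0.0443). The spot of knockdown replicate 1 was left out as an outlier, and with it kept the difference was -1.32 (adjusted p = 0.101). With the slide block the adjusted p of Ppara was 0.063. Without control replicate 1, 2 or 3, or knockdown replicate 2 or 4, it lay between 0.0935 and 0.122. Its other probes differed by -1.69 and -0.16.

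Ucp1 measured 6.10, 6.53, 6.63 and 6.46 on the Gyk knockdown arrays, against 7.53 and 7.25 on control replicates 3 and 4, a difference of -0.96 (SE 0.20, adjusted p = 0.0376). The spots of control replicates 1 and 2 were outliers and were left out, with values of 5.86 and 6.01. Kept in, they lie below the knockdown arrays of their own slide, and the difference became -0.23 (adjusted p = 0.726). Within the slide of control replicates 3 and 4 the difference was -0.84, and with the slide block the adjusted p was 0.102. The adjusted p was also 0.0599, 0.067, 0.183 and 0.1004 without control replicates 1 to 4, and 0.0572 and 0.0763 without knockdown replicates 2 and 4.

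The other 4 members did not pass the test in Gyk knockdown. Otop1 measured -0.24, -0.05, -0.12 and -1.93, against 0.48, 0.51, 0.57 and 0.55 on controls (difference -1.11, SE 0.39, adjusted p = 0.117). All 4 knockdown values lay below the controls but replicate 4 lay far from the rest, and without it the difference was -0.67 (adjusted p = 0.017). Ppargc1a differed by -0.28 (adjusted p = 0.201), Cox7a1 by -0.17 (adjusted p = 0.461) and Prdm16 by 0.14 (adjusted p = 0.672). Of the mature adipocyte markers 1 of 9 was lower in Gyk knockdown, and none of the 8 preadipocyte markers was called. Skeletal muscle markers summed to 29.2 to 46.5 on Gyk knockdown arrays, against 56.1 to 73.5 on controls, with Ckm, Tnnt3 and Tnni2 not well above background in either group, and their part was not tested.

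The knockdown effects were then set against each other in a fit over all 16 culture arrays. The experiments differed in slide and scan day, which cannot be told apart from the knockdown. The effect was more negative in Pparg knockdown for 4 members, of which Otop1 and Prdm16 were not called in Gyk knockdown. Of 13127 genes, 12.4% were called in either direction, 6.14% lower and 6.28% higher. The difference between effects was -1.88 for Ucp1 (SE 0.22, adjusted p = 9.3e-05), -2.13 for Otop1 (SE 0.45, adjusted p = 0.00496), -1.49 for Dio2 (SE 0.29, adjusted p = 0.00319, fitted on dim values, since none of the 4 Pparg and 2 of the 4 Gyk knockdown arrays were well above background) and -1.46 for Prdm16 (SE 0.31, adjusted p = 0.00591). With outlier spots kept, which adds the Gyk controls left out above, the Ucp1 difference was larger, -2.61. The Dio2 difference lost its call with normexp (-0.69, adjusted p = 0.384). For Cox8b the effects differed by -0.23 (SE 0.22, adjusted p = 0.565) and for Cidea by -0.64 (SE 0.23, adjusted p = 0.0915). Cox7a1 (-0.26), Ppargc1a (0.28) and Ppara (-0.62) did not pass either. For Elovl3 no knockdown array of either experiment was well above background, so the sizes of its falls cannot be set against each other. Cidea passed without Gyk knockdown replicate 1 (-0.75, adjusted p = 0.0353) and Ppara without Gyk knockdown replicate 2 (-0.73, adjusted p = 0.0456).

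In mice at room temperature, arrays labelled knockout had lower levels of most brown fat genes. Of 10 members, 8 were lower and 0 higher, where 34.9% of 14081 genes were called in either direction, 19.7% lower and 15.2% higher. Ranges were apart for 9 members, of which Prdm16 was the one higher on arrays labelled knockout, against 41.4% of all genes (23.2% lower and 18.3% higher). The median of the members was -1.36, against -0.06 for all genes. Elovl3 and Otop1 fell most, by 27.7-fold and 17.2-fold, Ucp1 fell 2.02-fold, and Dio2 and Prdm16 did not pass the test.

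Ucp1 measured 9.32, 9.39, 8.92 and 8.98 on room-temperature arrays labelled knockout, against 10.03, 9.85, 10.22 and 10.57 on controls (difference -1.02, SE 0.24, adjusted p = 0.0045). The groups did not overlap, and the difference was -0.99 and -1.04 within the slides. With quantile normalization it was -0.46 (adjusted p = 0.0879). Cidea measured 9.08, 8.65, 8.51 and 8.80, against 10.12, 10.07, 10.12 and 10.40 on controls (difference -1.42, adjusted p = 0.000103). Over the alternatives the Cidea difference lay between -1.52 and -0.79. The knockout label again went with the lower values on both slides.

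Elovl3 measured 1.35, 1.66, 0.80 and 1.59 on arrays labelled knockout, against 6.66, 6.06, 5.94 and 5.92 on controls (difference -4.79, SE 0.82, adjusted p = 0.000454). Otop1 measured 0.80, 0.91, 0.63 and 0.82, against 4.997, 4.72, 4.997 and 4.86 on controls (difference -4.10, SE 0.16, adjusted p = 1.13e-09). Both gaps were many times the spread within a group. The other Otop1 probe differed by -3.18.

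Cox8b measured 8.20, 8.54, 8.46 and 8.16 on arrays labelled knockout, against 9.74, 9.45, 9.59 and 9.80 on controls (difference -1.30, adjusted p = 3.43e-05). Cox7a1 measured 9.04, 9.01, 8.93 and 8.80, against 9.71, 9.38, 9.63 and 9.73 on controls (difference -0.67, adjusted p = 0.000419). Both subunits were lower on all 4 arrays. Over the alternatives the Cox8b difference lay between -1.37 and -0.70. With quantile normalization the Cox7a1 difference was -0.11 (adjusted p = 0.256).

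Ppara measured 2.44, 2.21, 2.76 and 2.26 on arrays labelled knockout, against 4.76, 4.40, 5.26 and 5.31 on controls, and fell 5.71-fold (difference -2.51, adjusted p = 2.33e-06). Its other probes differed by -2.54 and -2.40. Ppargc1a measured 1.79, 1.87, 2.34 and 1.92, against 4.18, 3.35, 4.60 and 4.23 on controls (difference -2.11, SE 0.73, adjusted p = 0.035), and its other probe by -1.56. These Ppargc1a groups lay far apart, but the SE is shared with the widely spread cold arrays, and the adjusted p was 0.0513 to 0.0832 without any of the 4 arrays labelled knockout or without control replicate 1, 3 or 4. Dio2 overlapped, at 3.71, 4.28, 4.35 and 4.34, against 4.09, 3.25, 4.43 and 4.79 on controls (difference 0.03, SE 0.48, adjusted p = 0.966), with differences of 0.67 and -0.61 within the slides. Prdm16 measured -0.20, 0.06, -0.34 and -0.44, against -0.77, -0.75, -0.97 and -0.67 on controls. All 4 values lay above the controls without passing the test (difference 0.56, SE 0.28, adjusted p = 0.134).

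The 6 skeletal muscle markers summed to 80.0 to 149.6 on room-temperature arrays labelled knockout, against 11.0 to 17.3 on controls, where Ckm was not well above background. Only 1 of the 6 passed the test. Of 9 mature adipocyte markers 5 were lower and 0 higher, with sums of 1111 to 1290 on arrays labelled knockout, against 1810 to 2276 on controls. Endothelial markers were lower for 3 of 5 (12.0 to 14.6, against 16.0 to 22.3 on controls). The part of these cells in the results was not tested.

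In the cold, arrays labelled knockout were again lower for most of the members. Of 10, 6 were lower and 0 higher (Ucp1, Cidea, Elovl3, Cox8b, Otop1 and Ppara), where 38.3% of 14081 genes were called in either direction, 22.4% lower and 15.9% higher. Ranges were apart for those 6, against 32.2% of all genes (19.0% lower and 13.2% higher). The median of the members was -1.12, against -0.05 for all genes. Cox7a1 and Ppargc1a, called at room temperature, were not called here.

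Ucp1 measured 8.59, 8.58, 7.96 and 7.34 on cold arrays labelled knockout, against 9.20, 8.998, 9.12 and 9.20 on controls (difference -1.01, SE 0.24, adjusted p = 0.0042). All 4 values lay below the controls, by -0.51 within the first cold slide and -1.51 within the second. Cidea measured 9.20, 9.02, 8.43 and 8.07, against 9.88, 9.92, 9.97 and 9.86 on controls (difference -1.23, adjusted p = 0.000329), with -0.79 and -1.66 within the slides. Cox8b measured 8.87, 8.90, 8.24 and 8.18, against 9.91, 9.79, 9.77 and 9.66 on controls (difference -1.23, adjusted p = 6.21e-05). The same 2 arrays labelled knockout, replicates 3 and 4 on the second slide, were the lowest for all 3 genes.

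Elovl3 measured -2.17, -4.06, -6.62 and -6.62 on cold arrays labelled knockout, against 1.81, -0.35, -0.69 and 1.29 on controls (difference -5.38, SE 0.82, adjusted p = 0.00018). Replicates 3 and 4 were not well above background, so the fitted difference contains dim values and is not a measured size. Otop1 measured 1.37, 1.32, 1.19 and 1.501, against 5.64, 4.89, 5.34 and 5.77 on controls, 16.8-fold lower (difference -4.07, SE 0.16, adjusted p = 5.09e-10). Ppara measured 4.13, 3.52, 3.51 and 3.17, against 6.17, 5.56, 5.72 and 5.55 on controls (difference -2.17, adjusted p = 1.09e-05). For these 3 genes no array labelled knockout reached the lowest control.

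The remaining 4 members overlapped between the groups. Cox7a1 measured 9.66, 9.64, 9.30 and 9.27 on cold arrays labelled knockout, against 9.60, 9.48, 9.50 and 9.48 on controls (difference -0.05, SE 0.11, adjusted p = 0.785), and with quantile normalization the sign turned (0.20, adjusted p = 0.0418). Ppargc1a measured 5.80, 3.73, 2.10 and 2.14, against 4.004, 4.75, 2.42 and 2.07 on controls (difference 0.13, SE 0.73, adjusted p = 0.909). Its spread followed the slide and not the label, since both groups were high on the first cold slide and low on the second. Dio2 measured 3.36, 2.03, 3.17 and 3.05, against 3.09, 4.89, 2.19 and 3.09 on controls (difference -0.41, adjusted p = 0.537). Prdm16 measured -2.56, -1.17, -2.05 and -2.81, against -1.50, -1.48, -1.99 and -1.15 on controls (difference -0.62, adjusted p = 0.0956), and passed without knockout replicate 2 (-0.94, adjusted p = 0.00322).

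**Figure D3:**
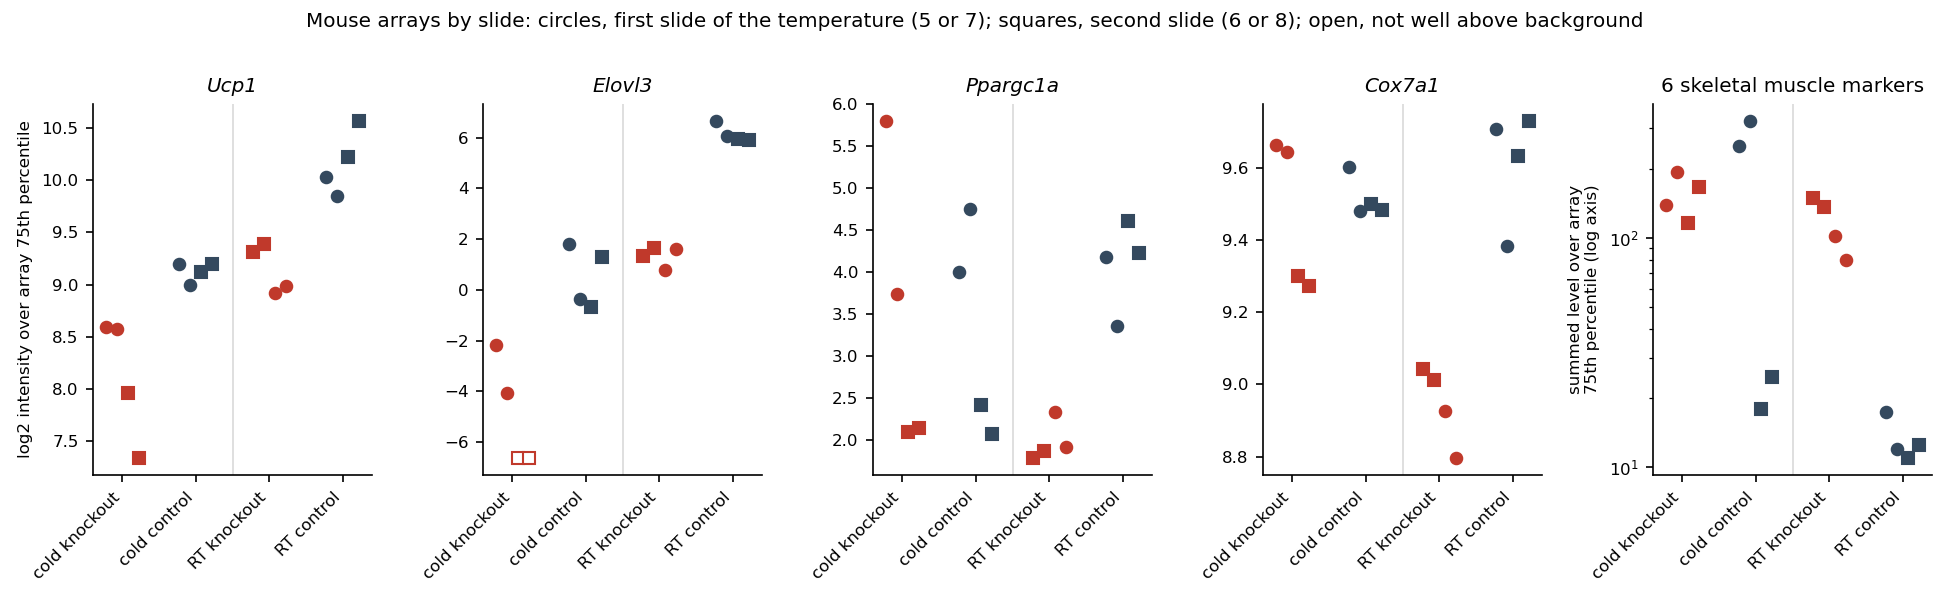
Mouse arrays of Ucp1, Elovl3, Ppargc1a and Cox7a1 (log2 intensity over the array's 75th percentile) and the summed level of 6 skeletal muscle markers (log axis), with labelled knockout arrays in red and controls in dark, in the cold and at room temperature (RT). Circles are the first slide of each temperature and squares the second; open squares were not well above background. Ppargc1a lay at 3.73 to 5.80 on the first cold slide and at 2.07 to 2.42 on the second.

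Markers of some other cells, but not of all, were higher with the label in the cold. Of 6 macrophage markers with a probe, 6 were higher, with sums of 25.7 to 40.3 on arrays labelled knockout, against 15.4 to 18.6 on controls. Preadipocyte and fibroblast markers were higher for 6 of 8 and lower for none (165 to 224, against 103 to 142 on controls), and nerve markers for 3 of 5 (67.6 to 74.97, against 16.0 to 24.2 on controls). Mature adipocyte markers were lower for 7 of 9 and higher for 1 (1335 to 1847, against 2066 to 2715 on controls). Skeletal muscle markers summed to 138.7, 194.4, 116.6 and 166.9 on arrays labelled knockout, against 251.0, 323.8, 17.8 and 24.7 on controls, where replicates 3 and 4 share the second slide. Of these 6 muscle markers 1 was higher and 1 lower (median -3.33). No endothelial marker of 5 was called, and 1 of 2 lymphocyte markers tested was lower. Apart from lymphocyte markers, all of these were well above background on some array of each of these groups. The part of these markers in the results was not tested.

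Whether the effect of the label changed with temperature was tested as the difference of the differences. Of 10 members 1, Cox7a1, was called (0.62, SE 0.16, adjusted p = 0.0216), where 13.4% of 14081 genes were called in either direction, 6.12% higher and 7.24% lower. The effect of the label on Cox7a1 was -0.05 in the cold, against -0.67 at room temperature. The call was lost with normexp (0.45, adjusted p = 0.246), quantile normalization (0.31, adjusted p = 0.058) and median scaling (0.46, adjusted p = 0.0858). For Ucp1 the effects at the 2 temperatures differed by 0.00 (SE 0.34, adjusted p = 0.994), for Otop1 by 0.03 (SE 0.22, adjusted p = 0.937) and for Elovl3 by -0.59 (SE 1.16, adjusted p = 0.779). Cidea (0.19), Dio2 (-0.44), Cox8b (0.07) and Ppara (0.34) did not pass. The Elovl3 value turned to 2.35 (adjusted p = 0.042) with normexp. Ppargc1a differed by 2.24 (SE 1.03, adjusted p = 0.159), and with the slide as a block, which removes the gap between the cold slides, its adjusted p was 0.0151. Prdm16 differed by -1.18 (SE 0.39, adjusted p = 0.0618) and passed without cold control replicate 3 (-1.33, adjusted p = 0.0486) or cold knockout replicate 2 (-1.50, adjusted p = 0.00611). It also passed with quantile normalization (-1.36, adjusted p = 0.0454) and with median scaling (-1.34, adjusted p = 0.0253).

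Cold exposure itself did not go with higher Ucp1 on these arrays. Set against room temperature, Ucp1 was lower by 1.03 on arrays labelled knockout and by 1.04 in control mice. Elovl3 fell in both, and the brightest probes of Ppara and Otop1 rose modestly in both. Other probes of these genes did not all rise, with Otop1 at -0.53 on arrays labelled knockout and Ppara at -0.06 in control mice. Here 65.5% of 14081 genes were called on arrays labelled knockout and 66.7% in control mice, in either direction, so that a call for a member is close to what any gene had. Each temperature had its own slides and scan day, which cannot be told apart from the cold, and the values below carry that limit.

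On arrays labelled knockout, 3 members were higher in the cold and 4 lower, where 40.9% of all genes were called higher and 24.6% were called lower. The groups did not overlap for 7 members, against 60.5% of all genes (37.8% higher and 22.7% lower). The median of the members was 0.07, against 0.23 for all genes. Cold and room-temperature values are those already given for each group. Ucp1 differed by -1.03 (adjusted p = 0.00157), Prdm16 by -1.92 (adjusted p = 2.73e-05) and Elovl3 by -6.22 (adjusted p = 1.06e-05, with 2 of 4 cold arrays well above background). Dio2 differed by -1.26 (adjusted p = 0.0311), and its adjusted p was 0.0687 with the slide block and 0.0613 to 0.101 without room-temperature replicate 2, 3 or 4 or cold replicate 2. Cox7a1 was higher by 0.53 (adjusted p = 0.000909), Otop1 by 0.55 (adjusted p = 0.00651) and Ppara by 1.16 (adjusted p = 0.000545; 0.48 and 1.62 on its other probes). Averaging the 2 Otop1 probes left 0.01 (adjusted p = 0.954), since the other probe differed by -0.53. Ppargc1a was higher by 1.46 without passing the test (adjusted p = 0.0886). Its other probe differed by 2.58, and the mean of both probes (2.02, adjusted p = 0.0163) and median scaling (1.65, adjusted p = 0.0458) passed, as did the fits without cold replicate 3 (1.91, adjusted p = 0.0375) or 4 (1.90, adjusted p = 0.0403). Preadipocyte and fibroblast markers were higher for 4 of 8 (165 to 224 in the cold, against 88.6 to 115 at room temperature), and nerve markers summed to 67.6 to 74.97, against 34.8 to 41.3 at room temperature, with 1 of 5 higher and 1 lower. Their part was not tested.

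In control mice, 2 members were higher in the cold and 3 lower, where 41.6% of all genes were called higher and 25.1% were called lower. Ranges were apart for 5 members, 1 higher and 4 lower, against 59.5% of all genes (37.3% higher and 22.2% lower). The median of the members was -0.50, against 0.23 for all genes. Ucp1 was lower on all 4 cold arrays than on any room-temperature array (difference -1.04, SE 0.24, adjusted p = 0.00148). Elovl3 was 49.5-fold lower (difference -5.63, SE 0.82, adjusted p = 2.69e-05), and well above background on all 4 arrays of each group. Prdm16 differed by -0.74 (adjusted p = 0.0297). This call was lost with the slide block (adjusted p = 0.0646), normexp (-0.41, adjusted p = 0.104), quantile normalization (-0.62, adjusted p = 0.0779) and median scaling (-0.39, adjusted p = 0.182), and the adjusted p was 0.0541 to 0.0935 without room-temperature replicate 1, 2 or 4 or cold replicate 3. Ppara was higher by 0.82 (adjusted p = 0.00685), with -0.06 and 1.06 on its other probes, and Otop1 by 0.52 (adjusted p = 0.0094), which averaging its probes reduced to 0.35 (adjusted p = 0.0658). Cidea (-0.27), Cox8b (0.14), Cox7a1 (-0.10), Ppargc1a (-0.78, and 0.56 on its other probe) and Dio2 (-0.82) did not pass, and Dio2 passed without cold replicate 2 (-1.35, adjusted p = 0.00649). Skeletal muscle markers were higher for 4 of 6 in cold control mice, with sums of 251.0, 323.8, 17.8 and 24.7 on cold arrays, against 11.0 to 17.3 at room temperature, so that cold replicates 3 and 4 lay close to the room-temperature range. Nerve markers were lower for 3 of 5 (16.0 to 24.2 in the cold, against 25.1 to 32.9 at room temperature). The part of these cells was not tested.

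**Figure D4:**
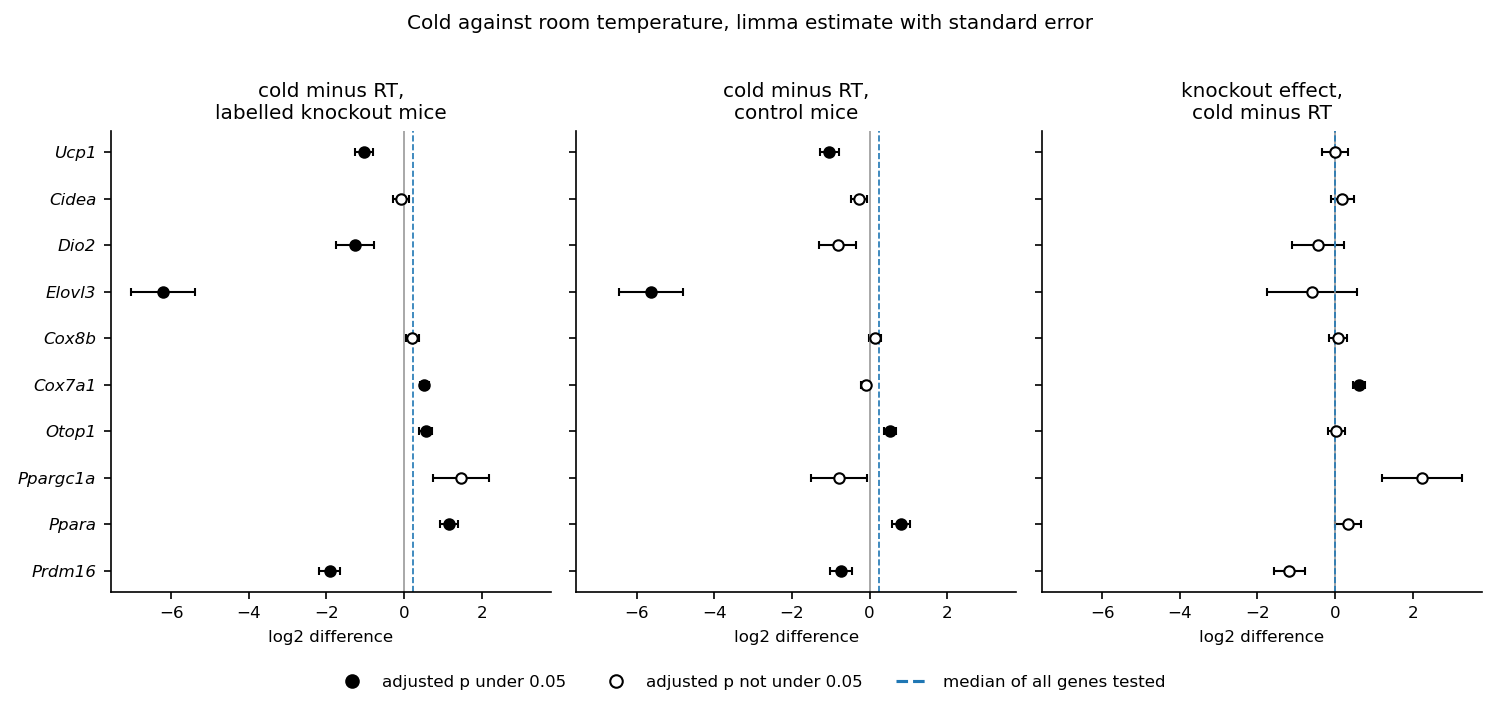
Log2 difference (points, with SE as bars) of each gene between cold and room temperature on arrays labelled knockout and in control mice, and the difference of the knockout effect between the temperatures, 4 arrays a group. Filled points had an adjusted p under 0.05 and the dashed line is the median of all genes tested. Elovl3 lies at -6.22 and -5.63, and Cox7a1 is the filled point of the right panel, at 0.62.

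A list of 30 other brown fat genes, made of regulators, mitochondrial and fatty acid oxidation genes, was read beside the members. Like the members, it was chosen with earlier results of these data known, so its counts are a description and not independent support. In Pparg knockdown 26 were tested, and 19 were lower and 3 higher (median -0.99), where 16.0% of all genes were lower and 18.1% higher. Fabp3, a fatty acid binding protein, fell by 1.68, Cpt1b, the muscle form of the mitochondrial carnitine transferase, by 1.52, Slc25a20, the carnitine carrier, by 1.43, and Pdk4, which turns off pyruvate oxidation, by 1.44 on the log2 scale. The regulators Ppargc1b (-1.14), Esrra (-0.94) and Esrrg (-1.05) fell as well, unlike Ppargc1a. The developmental regulators Lhx8 (0.49) and Zic1 (0.43) rose, as did the chaperone gene Hspb7 (0.76).

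In Gyk knockdown 8 of 26 were lower and 1 higher (median -0.43), where 4.10% of all genes were lower and 4.65% higher. Gk was among the 8, but as the knocked-down gene its call was set by the design. The others that were lower were Fabp3 (-1.46), Acadl (-1.35), Pank1 (-1.20), Slc25a20 (-0.93), Pdk4 (-0.85), Acot11 (-0.71) and Ehhadh (-0.65). Most of these are enzymes or carriers of fatty acid handling, and Lhx8 (0.43) was the higher gene. At room temperature 14 of 29 were lower and 3 higher on arrays labelled knockout (median -0.53; 19.7% and 15.2% of all genes), led by Slc27a2 (-3.21), a fatty acid transporter and ligase, Fabp3 (-2.49), Cited1 (-2.31), a transcriptional cofactor, and Ehhadh (-2.08), a peroxisomal oxidation enzyme. In the cold 13 of 29 were lower and 3 higher (median -0.54; 22.4% and 15.9% of all genes), with Fabp3 (-2.80), Ehhadh (-1.83), Acot11 (-1.81) and Slc25a20 (-1.77) furthest down and Bmp8b (1.60), Zic1 (1.497) and Lhx8 (0.90) higher.

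In the cold against room temperature 8 of the 29 were higher and 10 lower, on arrays labelled knockout (median 0.24) and in control mice (median -0.25) alike. Of all genes 40.9% were higher and 24.6% lower on arrays labelled knockout, and 41.6% and 25.1% in control mice, so a call here says little about the list. Irf4, a transcription factor of thermogenic fat, differed by 4.32 on arrays labelled knockout and by 3.59 in control mice, Bmp8b by -2.34 and -4.14, Pank1, which starts coenzyme A synthesis, by -2.11 and -2.50, and Ppargc1b by -1.30 and -1.73. The effect of the label changed with temperature for 3 of 29, Cited1 (2.05), Slc27a2 (2.05) and Esrrg (0.78), where 13.4% of all genes were called in either direction. The knockdown effects differed for 6 of 27, where 12.4% of all genes were called in either direction. Of these 6, 5 were more negative in Pparg knockdown, among them Letmd1 (-1.05), a mitochondrial protein, Cebpb (-0.81), a transcription factor, and Adrb3 (-0.74), the adrenergic receptor of fat cells.

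**Figure D5:**
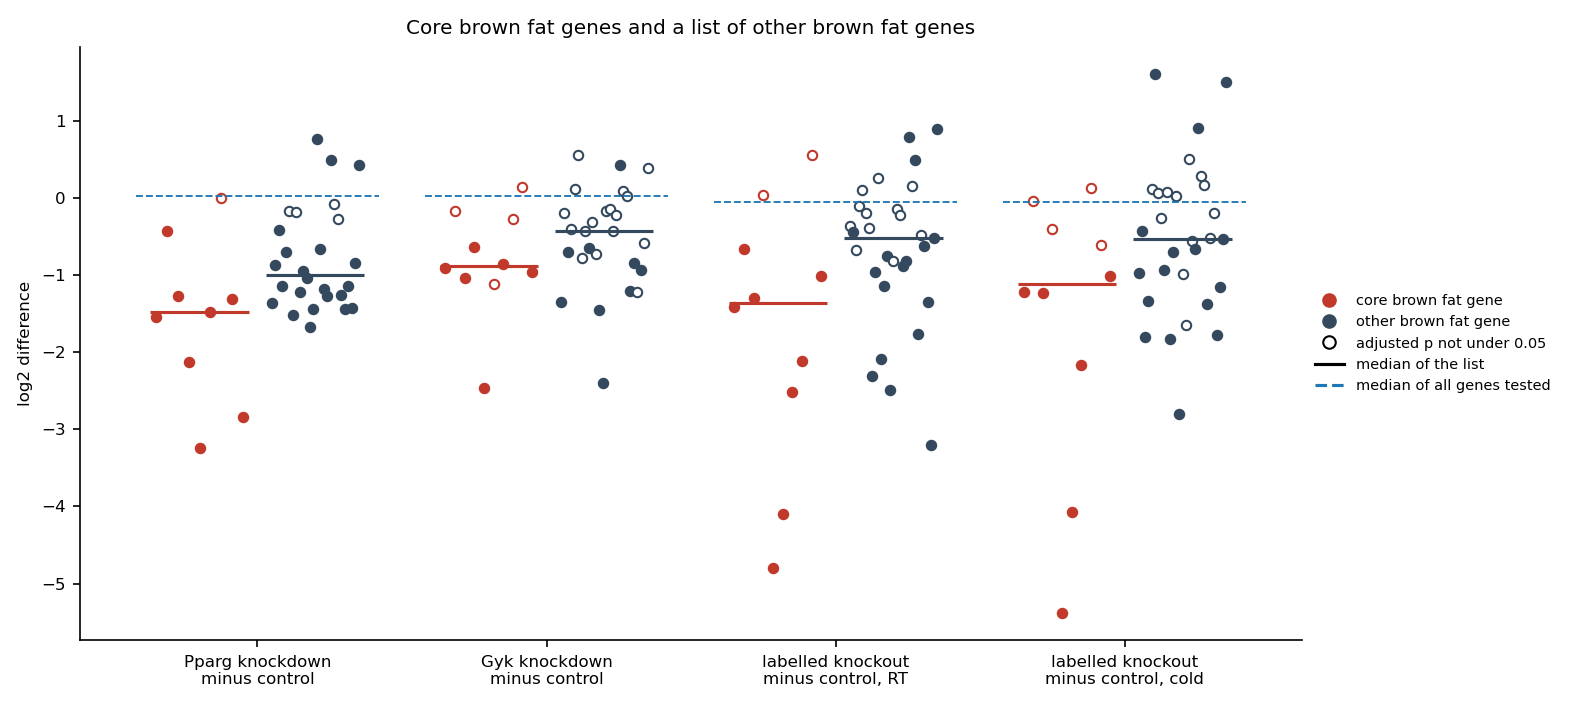
Log2 differences of the core brown fat genes (red) and of a list of other brown fat genes (dark) in the 4 knockdown or labelled knockout comparisons. Filled points had an adjusted p under 0.05, solid bars are list medians and the dashed line is the median of all genes tested. The core genes' medians were -1.48, -0.88, -1.36 and -1.12, against -0.99, -0.43, -0.53 and -0.54 for the other list. Both lists were chosen with earlier results of these data known.

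Close relatives of the members did not all follow them, and the shares of all genes called are those given for the list above. Of 23 such genes, Pparg itself among them, 17 were tested in each comparison. In Pparg knockdown 5 were lower and 1, Mecom, higher. The targeted Pparg was among the 5, and its call was set by the design. Cidec, a lipid droplet fusion protein related to Cidea, fell most (-2.36), with Ucp2 at -0.56. On room-temperature arrays labelled knockout 5 were lower and 4 higher, with Pparg among the higher ones. Ucp2 (2.91) and Ucp3 (2.10), relatives of Ucp1 that are known from immune cells and from muscle, were higher, and Cidec (-1.59) was lower. In the cold 5 were lower and 5 higher, again with Pparg, Ucp2 (3.47) and Ucp3 (1.03) up and Cidec (-2.24) down. Cox8a, the form of most other tissues, stood at -0.57 in the cold and -0.48 at room temperature and Cox7a2l at -0.53 and -0.39, beside -1.23 and -1.30 for Cox8b. Elovl1, an enzyme of the same family as Elovl3, was higher by 0.79 in the cold and by 1.42 at room temperature, a difference of effects of -0.63 that was called. In Gyk knockdown Cideb was lower (-0.68) and Elovl4 higher (0.91), and the others did not pass. In the cold against room temperature Elovl4 differed by -3.15 on arrays labelled knockout and by -2.27 in control mice, and Elovl5 by -2.21 and -1.22.

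The genes whose 8 group means were most like those of Ucp1, among 12912 genes, were BC003965 (Pearson r 0.984), Csnk2a1 (0.984), the catalytic subunit of a protein kinase, Suclg2 (0.983), of the citric acid cycle, Acadl (0.980), of fatty acid oxidation, and Crls1 (0.979), which makes cardiolipin. Of the members, Cox8b (0.910), Cidea (0.908), Dio2 (0.906) and Cox7a1 (0.904) came closest to Ucp1, and Ppara (0.130) and Ppargc1a (0.0712) least. All of these points share the gap between cultured cells and mice, which differ in slide and scan day, so they are given as a description without a test.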

How the data were processed

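RNA of 32 samples was measured on one-colour arrays. The authors deposited scanner output, which per the file headers gives every spot's linear intensity, already background-subtracted by Agilent Feature Extraction 10.7.3.1 (also named in the submitters' processing notes) but not normalized between arrays, with raw median intensities of spot and background and with flags. The series table deposited by the authors holds the same intensity values. Here the log2 of the intensity minus that of each array's 75th percentile was used. Of 44397 spots, 1377 control spots and 101 to 247 outlier spots per array were left out. Probe names came from the RefSeq table of GRCm38.p6, which named 69.1% of 39429 probes; the array grid is on another build, so it served for names only. The probe with the highest mean over 32 arrays stood for a gene, provided 4 or more arrays in the fit had it well above background. No member's spot was saturated.

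Groups were compared with limma 3.58.1 (R 4.3.3) and Benjamini-Hochberg adjustment over all genes tested, after tests on simulated data, in fits of 8 arrays for each culture experiment, 16 for mice and 16 for both cultures. Same-numbered arrays deviated together in the Pparg culture experiment (correlations of deviations 0.703 to 0.767), and arrays with other numbers of the same slide did so too (0.690 to 0.725). The numbers were read as pairs there, but such pairs cannot be told apart from the slide. The main fits used no block. The other experiments did not meet the limit of 0.1 for every pair. Alternatives were quantile normalization, scaling to the median, normexp on median intensities (offset 50; the planned mean intensity column was not among those read), no filter on dim probes or a stricter one, the mean of a gene's probes, outlier spots kept, slide or replicate block, and each array left out. Named genes were the members, the targeted genes, list genes that passed a test, close relatives, and the 5 genes most like Ucp1. Members and lists were chosen with earlier results of these data known.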

Additional observations from a re-analysis of the deposited data

Results flagged for a closer look

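Of 78 sets of 4 arrays (a member in a group), 6 held an array far from the other 3 by Dixon's test; chance gives about 1 set in 20. They were the lowest Cidea value of Gyk controls (7.95), the lowest Dio2 value of room-temperature arrays labelled knockout (3.71), the lowest Elovl3 value of Pparg knockdown (-7.68, below background), the highest Cox7a1 value of cold controls (9.60), the lowest Otop1 value of Gyk knockdown (-1.93, on the dimmest pair of arrays) and the lowest Prdm16 value of Gyk controls (-1.74). A test of the difference between effects picked out 5 results. The knockout effect on Cox7a1 differed between cold and room temperature by 0.62, a call lost with normexp, quantile normalization and median scaling. The effects on Ucp1 (-1.88), Dio2 (-1.49), Otop1 (-2.13) and Prdm16 (-1.46) were more negative in Pparg than in Gyk knockdown. For Dio2, 0 of 4 and 2 of 4 of these knockdown arrays were well above background. The causes of these results were not tested.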

How the results depend on the processing

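Over the alternatives, 1414 values of single genes kept their side of the threshold, 78 lost a call, 21 gained one and 2 reversed. A reversal was a change of sign with a call in either fit. The 1414 therefore include values that changed sign without a call, such as the Ucp1 difference between temperatures in 10 of 25 alternatives. The reversals were Cox7a1 in the cold, labelled knockout minus control, with quantile normalization (0.20, adjusted p = 0.0418), and the Elovl3 difference between temperatures with normexp (2.35, adjusted p = 0.042). The cause of these changes was not tested.

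The count of Gyk knockdown members, 6, was 2 with normexp, 2 with no filter on dim probes and 1 with the replicate block, and 1 to 6 with each array left out. All genes called there, 1071, became 269, 447 and 111 under the same settings, and 295 to 1381 with each array left out. In Pparg knockdown 4375 genes became 7597 with the slide block and 7410 with the replicate block, which pairs the same numbers, and the block changed no member's call there. In Gyk knockdown it ended the calls of Ucp1, Cidea, Dio2, Cox8b and Ppara, where the numbers were not read as pairs; the slide block ended those of Ucp1 (adjusted p = 0.102) and Ppara (0.063). In mice, likewise not read as pairs, it ended the Dio2 call for cold on arrays labelled knockout (adjusted p = 0.0827) and gave one to Ppargc1a for the difference between temperatures (adjusted p = 0.0351), and it changed no other member's call. The slide block also ended the Dio2 call for cold on arrays labelled knockout and the Prdm16 call for cold in control mice, and gave calls to Ppargc1a for the difference between temperatures and to Cidea for the difference between knockdowns (adjusted p = 0.0367). At room temperature 4908 genes became 2394 with normexp. For the difference between temperatures the member count, 1, was 2 with the slide block and 2 with the replicate block, and 1 to 2 with each array left out; all genes, 1881, became 612 with normexp and 1233 to 2188 with each array left out (1233 without room-temperature knockout replicate 1). For the difference between knockdowns 1631 genes became 863 with normexp and 3002 with the slide block.

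Scaling to the array median moved the share of calls that were higher to 34.8% in Pparg knockdown (53.1% with the 75th percentile), 36.7% in Gyk knockdown (53.1%), 55.9% at room temperature (43.5%), 76.5% for cold in control mice (62.3%) and 24.8% for the difference between temperatures (45.8%; 32.2% with normexp). It moved the median of all genes by -0.14, -0.11, 0.10, 0.35 and -0.16 in these, and by 0.19 for cold on arrays labelled knockout; quantile normalization moved the cold control median by 0.12, and normexp moved those of the difference between temperatures (0.13), of the cold labelled knockout comparison (0.16) and of the difference between knockdowns (-0.12). Dim probes set the limit for Dio2 and Elovl3 in culture, where several arrays were not well above background.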
